A study of Mus musculus with 9 samples.

Results

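The genes of smooth muscle contraction were followed in fibroblasts from 2 mouse models of liver fibrosis and in the hepatic stellate cells (HSCs) of healthy liver. The set was given by name, as 41 gene symbols of contractile filaments, their anchors, their calcium supply and their transcription factors, and every symbol had an entry among the 24453 genes in the file. Of the 41, 40 passed the filter on low counts and were tested among 13651 genes; Ppp1r14a, an inhibitor of myosin phosphatase, had at most 9 reads in a library and was not tested.

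RNA sequencing libraries were compared in 3 groups of 3, each library made from cells pooled from 3 to 5 mice, so p-values measure the spread between pools. HSCs came from livers of wild-type C57BL/6J mice without treatment and were separated on a density gradient. CCl4-fib were the CD45- GFP+ cells sorted from Col1a2-GFP Tg mice injected with carbon tetrachloride 2 times a week for 8 weeks. NASH-fib were sorted in the same way from Col1a2-GFP Tg mice crossed with MC4R-KO mice (MC/COL), whose males were given Western diet for 20 weeks from an age of 8 weeks. Sex and age of the other mice were not given in the sources used here. GFP is driven by the promoter of the collagen gene Col1a2, so the sort took in any CD45- cell in which that promoter was active. HSCs were neither GFP-labelled nor sorted, so in both comparisons with HSCs the way of isolation and the transgene cannot be told apart from the disease. Between the fibroblast groups, the MC4R-KO genotype cannot be told apart from diet or from carbon tetrachloride. Mc4r itself, the gene knocked out in the NASH model, had 0 reads in all HSC and CCl4-fib libraries and 4, 13 and 0 reads in the NASH-fib libraries. Which part of the gene was disrupted was not taken into account, so these reads neither check nor contradict the genotype.

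Smooth muscle shortens when calcium, entering through the channel of Cacna1c or released from stores, lets the kinase Mylk phosphorylate the regulatory light chain Myl9 and thereby switch on the myosin Myh11 along actin filaments. Calponin, caldesmon, leiomodin and tropomyosin sit on those filaments, which are fixed at dense bodies and adhesion plaques. Stellate cells are pericyte-like cells that store vitamin A in healthy liver, and they take on Acta2, the smooth muscle actin, when they become myofibroblasts. Many of these genes are controlled by the serum response factor Srf, which binds the CArG box, and by its smooth muscle partner Myocd.

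CArG boxes were looked for in RefSeq promoter windows (GRCm38.p6, 250 bases before to 50 after the start), which covered 34 of the 41 genes. A CArG box on either strand was found in 7 of those 34 genes (20.6%) and in 1.81% of 27025 genes with a window. The 7 were Cnn2, Filip1l, Ldb3, Myl6, Myl9, Srf and Vcl. Some genes had several windows, and a box in any of them counted. For Filip1l the box lies in a window 195965 bases from the start of the counted entry, whose own window held no box. Myl6 carries it only in the window farther from that start. A like box with 1 G or C in its core of A and T, which includes the first form, was in 11 of 34 (32.4%) against 11.3% of all genes, and Acta2 was among these. The MCAT element CATTCC was in 10 of 34 (29.4%, against 16.6%) and TATAAA in 4 of 34 (11.8%, against 15.7%), also on both strands. A match is a string of letters and not a measured binding site. The 250 bases before the start are shown for Acta2, which had the smallest adjusted p of the members in both comparisons with HSCs, for Myl9, Ldb3 and Cnn2, which carry a CArG box and rose in CCl4-fib, and for Srf, which carries CArG boxes and did not pass the test. Capitals mark CArG and like boxes.
Acta2 (chr19:34255374-34255623, minus strand): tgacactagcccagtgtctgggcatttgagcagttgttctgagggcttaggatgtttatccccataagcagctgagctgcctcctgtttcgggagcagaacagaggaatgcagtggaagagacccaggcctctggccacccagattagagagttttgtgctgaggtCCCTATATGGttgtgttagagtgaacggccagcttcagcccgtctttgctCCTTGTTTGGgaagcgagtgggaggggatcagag
Myl9 (chr2:156775214-156775463, plus strand): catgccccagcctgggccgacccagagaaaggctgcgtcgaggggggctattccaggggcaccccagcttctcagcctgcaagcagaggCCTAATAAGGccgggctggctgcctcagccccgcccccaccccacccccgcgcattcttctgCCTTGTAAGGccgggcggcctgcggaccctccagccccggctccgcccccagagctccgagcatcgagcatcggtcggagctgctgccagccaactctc
Ldb3 (chr14:34588682-34588931, minus strand): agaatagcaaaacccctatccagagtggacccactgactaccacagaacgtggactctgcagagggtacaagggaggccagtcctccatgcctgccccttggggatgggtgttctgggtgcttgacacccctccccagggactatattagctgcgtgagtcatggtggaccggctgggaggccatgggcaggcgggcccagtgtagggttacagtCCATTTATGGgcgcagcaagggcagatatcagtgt
Cnn2 (chr10:79988350-79988599, plus strand): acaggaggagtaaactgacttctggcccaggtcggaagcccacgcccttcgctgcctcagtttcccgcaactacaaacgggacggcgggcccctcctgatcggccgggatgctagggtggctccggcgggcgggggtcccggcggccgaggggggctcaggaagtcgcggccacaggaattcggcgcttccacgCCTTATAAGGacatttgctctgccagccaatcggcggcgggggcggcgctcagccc
Srf (chr17:46556163-46556412, minus strand): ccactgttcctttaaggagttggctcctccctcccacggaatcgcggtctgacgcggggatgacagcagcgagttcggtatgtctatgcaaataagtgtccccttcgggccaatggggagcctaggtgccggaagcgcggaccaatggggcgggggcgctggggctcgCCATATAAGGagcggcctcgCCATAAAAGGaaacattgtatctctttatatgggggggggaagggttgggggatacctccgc
Acta2 holds only like boxes, each with 1 C or G in the core, Myl9 holds both kinds, and Srf holds a pair of CArG boxes. Among the members tested, 3 of 7 with a CArG box and 17 of 26 without one were called higher in CCl4-fib. In NASH-fib the counts were 3 of 7 and 14 of 26.

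Levels are normalised read counts, scaled so that every library sums to the same total. The libraries held 3071070 to 3825522 reads on genes in HSCs, 4687349 to 5634273 in CCl4-fib and 3289758 to 5021156 in NASH-fib, so 3 reads, taken as the floor, had a value of 2.38 to 4.37. HSC replicate 2 and NASH-fib replicate 1 stood apart from their groups in a like manner, their deviations from the group means following GC content over the 13651 genes (Spearman correlation -0.387 and -0.51, a description across genes). A gene was called where limma, fitted over all genes tested, gave a log2 fold change of 1 or more in either direction with a Benjamini-Hochberg adjusted p under 0.05. In CCl4-fib 25 of 40 members (62.5%) were called higher than in HSCs, where 16.2% of all genes tested were, and 1 member, Pgm5, was called lower, where 11.7% of all genes were. In NASH-fib 21 of 40 members (52.5%) were called higher than in HSCs, against 8.23% of all genes, and 0 lower, against 4.30%. Cnn1, Lmod1, Ldb3, Cap2, Casq2, Kcnma1 and Myocd, at the floor in HSCs, passed the filter only through fibroblast libraries. Against HSCs they could be called higher but not lower, so their direction in these counts and in the medians below was fixed beforehand. Several of them are on the study's own list of genes raised in NASH-fib over HSCs and CCl4-fib, chosen on these libraries. The members were chosen with earlier results of these data known, so the excess over all genes in either fibroblast group is not independent evidence. At an unadjusted p under 0.05, 27 members were higher and 0 lower in NASH-fib, and edgeR and DESeq2 also called 0 lower. With HSC replicate 2 and NASH-fib replicate 1 both left out, 26 members were higher and 1 lower in CCl4-fib, and in NASH-fib 28 were higher and 0 lower, where 19.4% and 9.61% of all genes were higher. After a correction for GC content and length, 24 were higher and 1 lower in CCl4-fib, and 25 higher and 0 lower in NASH-fib, where 14.1% and 9.08% of all genes were higher. The libraries also carry date labels, which the groups share in part. With the date label as a term, 21 members were higher and 1 lower in CCl4-fib, and 15 higher and 0 lower in NASH-fib, where 10.4% and 4.02% of all genes were higher. The calls lost with that term were those of Cnn2, Smtn, Synm and Csrp1 in CCl4-fib and of Myl9, Tpm1, Tpm2, Cnn1, Filip1l and Synm in NASH-fib. The median log2 fold change of the 40 members was 3.35 in CCl4-fib (3.13 with genes at the floor in HSCs set to their lower bound) and 2.28 in NASH-fib, beside 0.18 and -0.02 over all genes. Both comparisons use the same HSC libraries. The 20 members called higher in both fibroblast groups were Acta2, Actg2, Myh11, Myl9, Tpm1, Tpm2, Tagln, Cnn1, Lmod1, Synm, Synpo2, Ldb3, Pdlim3, Cap2, Casq2, Pln, Cacna1c, Kcnma1, Kcnmb1 and Myocd. The share of all genes called higher in both was not counted, and the shared HSC libraries make these calls dependent, so the 20 cannot be judged as an excess. Cnn2, Smtn, Pdlim7, Csrp1 and Csrp2 were called in CCl4-fib alone and Filip1l in NASH-fib alone, and 13 members were not called against HSCs. In these pools, a rise may be more contractile cells or more RNA of the gene per cell, which cannot be told apart. Counting ignored strand, so reads of Tagln, Vcl, Synm and Pln cannot be separated from those of a protein-coding gene overlapping on the other strand, nor reads of Tpm4, Smtn, Actn1, Des, Cap2, Mylk, Itpr1, Mrvi1 and Kcnma1 from those of a noncoding or unclassified gene there. Acta2, Actg2 and Actb encode closely similar proteins, and how any reads shared between the genes were counted was not given in the sources used here.

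**Figure D1:**
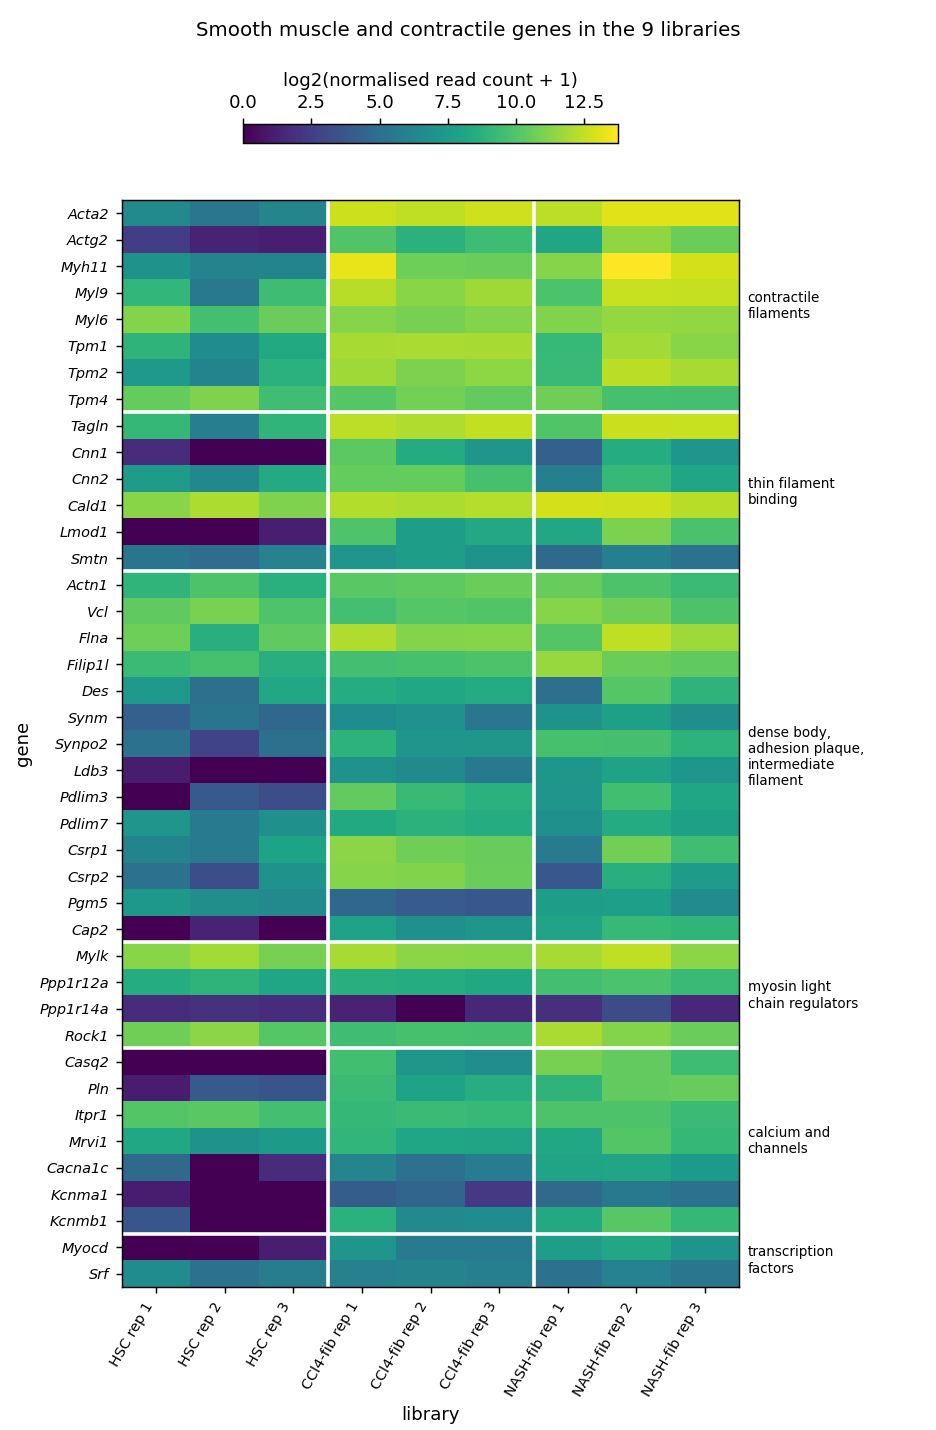
Levels of the 41 genes in the 9 libraries, as log2 of the normalised read count plus 1, with libraries in columns and genes in rows by role. The HSC columns are dark for Lmod1, Ldb3, Cap2, Casq2 and Myocd, which had at most 1 read there in any library, while Myl6, Cald1, Mylk and Vcl are bright in all 9 columns.

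Of the 8 genes of the contractile filaments, 6 were called higher in both fibroblast groups. Beside this and the counts by role below, 16.2% of all genes were called higher in CCl4-fib and 8.23% in NASH-fib. Acta2 (NM_007392, chromosome 19, 34240336 to 34255373 in mm10), the actin by which myofibroblasts are recognised, had 93.5, 40.8 and 74.1 in the HSC libraries, 6692, 5464 and 6985 in CCl4-fib and, in NASH-fib, 5300, 8983 and 8846. The fibroblast libraries lay far above every HSC library and close to each other. Its log2 fold change against HSCs was 6.57 (SE 0.38, limma adjusted p = 6.98e-06) in CCl4-fib and 6.81 (SE 0.38, limma adjusted p = 1.09e-05) in NASH-fib. The file header gives a limit of 3 reads per position in counting, and Acta2 reached 3.94 reads per exonic base, beside 6.38 for Myl9, 5.58 for Myl6, 4.54 for Tagln and 3.46 for Csrp2. Whether the limit lowered these values was not tested.

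Actg2 (NM_009610, chromosome 6, 83512909 to 83536251), the enteric actin of visceral smooth muscle, had 4.68, 1.46 and 1.2 in HSCs, which is 4, 1 and 1 reads. In CCl4-fib it had 1023, 452 and 705, and in NASH-fib 277, 2855 and 1612. It rose by a log2 fold change of 7.78 (SE 0.78, limma adjusted p = 7.93e-05) in CCl4-fib and 8.44 (SE 0.78, limma adjusted p = 7.68e-05) in NASH-fib. As a ratio of values within a library, Actg2 was 0.0162 to 0.05 of Acta2 in HSCs, 0.0827 to 0.153 in CCl4-fib and, in NASH-fib, 0.0523, 0.318 and 0.182. So the balance of the pair varied among the NASH-fib pools more than Acta2 did.

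Myh11 (NM_001161775, chromosome 16, 14194527 to 14291408), the heavy chain of smooth muscle myosin, had 125, 68.4 and 72.9 in HSCs. It had 9805, 1647 and 1610 in CCl4-fib and, in NASH-fib, 2410, 13649 and 7507, with 1 CCl4-fib pool and 1 NASH-fib pool well above the rest. The log2 fold changes were 5.10 (SE 0.76, limma adjusted p = 0.000845) and 6.18 (SE 0.76, limma adjusted p = 0.000408). The fibroblast groups overlapped each other for Myh11.

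Myl9 (NM_172118), the regulatory light chain, had 544, 46.6 and 697 in the HSC libraries, 4969, 2549 and 3517 in CCl4-fib and, in NASH-fib, 937, 6123 and 6007. All fibroblast libraries were above all HSC libraries, and the log2 fold changes were 3.76 (SE 0.99, limma adjusted p = 0.0178) in CCl4-fib and 3.63 (SE 0.99, limma adjusted p = 0.0360) in NASH-fib. The first call was lost without CCl4-fib replicate 1 or 3, and the second without any of 6 libraries, namely HSC replicate 2, any CCl4-fib replicate, or NASH-fib replicate 2 or 3. Tpm1 and Tpm2, tropomyosins that lie along the thin filament, rose by log2 fold changes of 3.98 and 3.95 in CCl4-fib and, in NASH-fib, 2.78 and 3.74 (limma adjusted p = 0.00198, 0.00426, 0.0230 and 0.00999). Tpm1 was even in CCl4-fib (3860 to 4087) and uneven in NASH-fib (585, 3591 and 2480). Leaving out HSC replicate 2, NASH-fib replicate 2 or NASH-fib replicate 3 ended its NASH-fib call.

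The remaining filament genes were already present in HSCs. Myl6, the essential light chain shared with nonmuscle myosin, had 2338, 783 and 1563 in HSCs and 1917 to 3014 in the fibroblasts, with log2 fold changes of 0.65 and 0.92 that did not pass the test (limma adjusted p = 0.254 and 0.205). Tpm4, a tropomyosin of nonmuscle cells, overlapped between all groups, with means of 1432, 1453 and 1140. Per kilobase of exon, Myl6 was the highest of the 41 genes in every group, at 2576, 3693 and 4479 in HSCs, CCl4-fib and NASH-fib. Acta2, by its mean per kilobase, stood 22 of 41 in HSCs (27.1), 4 in CCl4-fib (2491) and 3 in NASH-fib (3010). The neighbouring ranks were not tested, and the top of this order holds genes with more than 3 reads per exonic base.

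**Figure D2:**
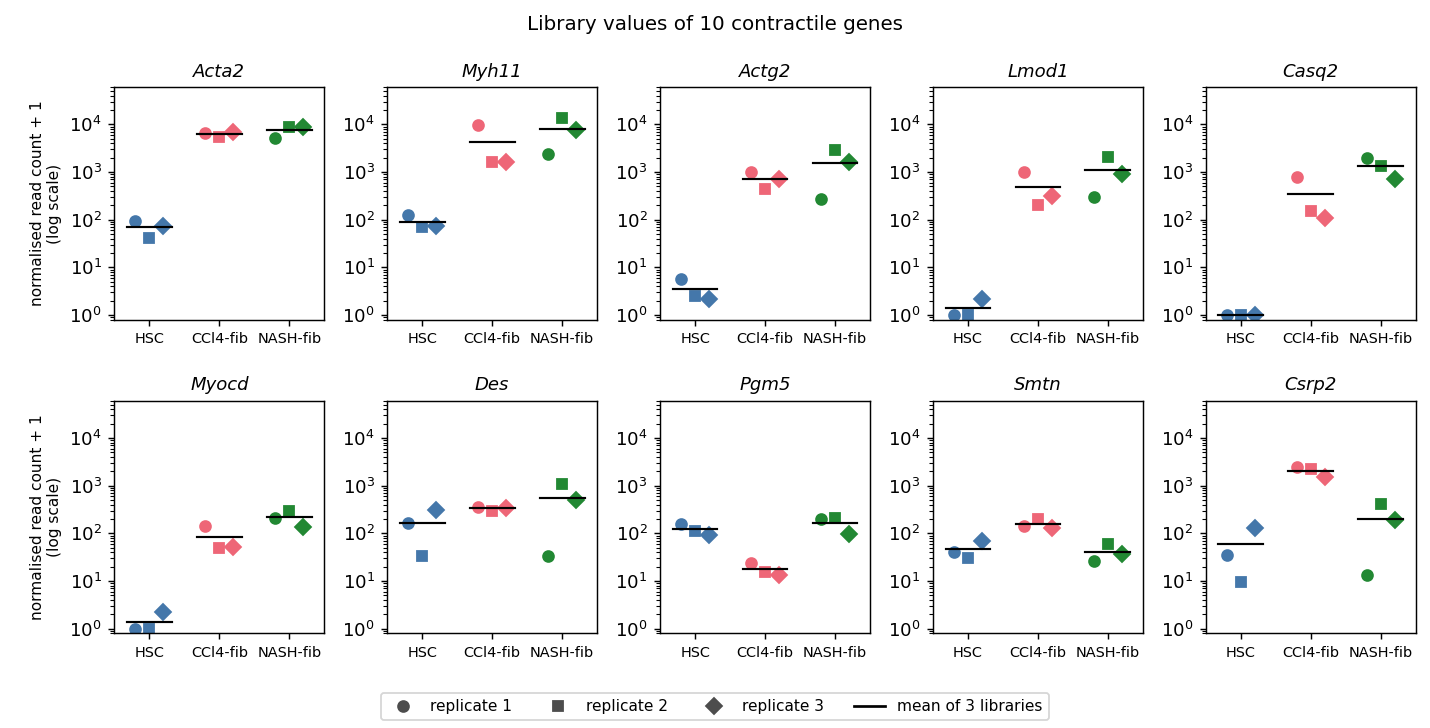
Normalised read counts plus 1 (log axis) of 10 contractile genes, each point a library, each black line the mean of 3 libraries. Acta2, Myh11, Actg2, Lmod1, Casq2 and Myocd lie higher in all 6 fibroblast libraries than in the HSC libraries. Pgm5 is low in the 3 CCl4-fib libraries (12.4 to 23.0), Csrp2 is high there (1543 to 2418), and Des overlaps between all groups.

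Of the 6 actin-binding proteins of the thin filament, 5 were called higher in CCl4-fib and 3 in NASH-fib. Tagln (NM_011526), transgelin, an abundant actin-bundling protein, had 572, 56.8 and 503 in the HSC libraries, 5219, 4434 and 5669 in CCl4-fib and, in NASH-fib, 1020, 6388 and 6025. Its log2 fold changes were 4.31 (SE 0.89, limma adjusted p = 0.00505) and 3.73 (SE 0.89, limma adjusted p = 0.0188), the second of which was lost without NASH-fib replicate 2 or replicate 3. Lmod1 (NM_053106, chromosome 1, 135324813 to 135368065), leiomodin, which starts new actin filaments in smooth muscle, had a single read in the 3 HSC libraries together. It had 983, 202 and 307 in CCl4-fib and, in NASH-fib, 298, 2070 and 890, at least 130-fold and at least 284-fold higher than the floor in HSCs. Without CCl4-fib replicate 1 the first bound was 66.7-fold, and without NASH-fib replicate 2 the second was 155.5-fold.

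Cnn1, calponin 1, a marker of differentiated smooth muscle, had 2, 0 and 0 reads in HSCs and values of 1217, 346 and 142 in CCl4-fib and, in NASH-fib, 17.7, 367 and 146. It was at least 149-fold higher in CCl4-fib, and in NASH-fib at least 46.3-fold, bounds that were 63.9-fold without CCl4-fib replicate 1 and 21.5-fold without NASH-fib replicate 2. Cnn2, a calponin also made outside muscle, was called in CCl4-fib, with a log2 fold change of 2.80 (limma adjusted p = 0.0211), and had 0.30 in NASH-fib (limma adjusted p = 0.908). Its CCl4-fib call was lost without HSC replicate 1, HSC replicate 2, CCl4-fib replicate 1 or CCl4-fib replicate 2. Smtn, smoothelin, had 39.8, 29.1 and 68.2 in the HSC libraries, 140, 200 and 131 in CCl4-fib and, in NASH-fib, 25.8, 59.7 and 35.4, with 19 to 235 reads in a library. It was called in CCl4-fib at 1.82 (limma adjusted p = 0.0184), a call lost without HSC replicate 1 or 2 or CCl4-fib replicate 1 or 2, and this was 0.79, with no call, once values were corrected for GC content and length. Cald1, caldesmon, had 2186 to 4176 in HSCs, 4296 to 4695 in CCl4-fib and, in NASH-fib, 4847 to 7254. Its groups did not overlap, where 27.8% of all genes were higher in this way in CCl4-fib and 12.7% in NASH-fib, yet its log2 fold changes of 0.67 and 1.13 did not pass the test (limma adjusted p = 0.166 and 0.0573). With the correction for GC content and length Cald1 was called in both.

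Among the 14 genes of dense bodies, adhesion plaques and intermediate filaments, 8 were called higher and 1 lower in CCl4-fib, and 6 higher in NASH-fib. Ldb3 and Pdlim3, PDZ and LIM proteins that bind alpha-actinin, and Cap2, which turns over actin filaments, were near absent in HSCs. Cap2 had 1 read in the HSC libraries together, 248, 117 and 155 in CCl4-fib and, in NASH-fib, 262, 599 and 504, at least 45.4-fold and at least 119-fold higher. Ldb3 (NM_011918) also had 1 read in HSCs, with 133, 89.3 and 46.8 in CCl4-fib and, in NASH-fib, 152, 244 and 145, at least 23.4-fold and at least 47.3-fold higher. Pdlim3 had 0, 13.1 and 8.37 in the HSC libraries, 1372, 612 and 432 in CCl4-fib and, in NASH-fib, 140, 769 and 267, with log2 fold changes of 7.13 and 5.92 (limma adjusted p = 0.000457 and 0.00219). Every fibroblast library was above every HSC library for these 3 genes.

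Synpo2, synaptopodin 2 of the dense body, rose by 3.46 in CCl4-fib and 5.09 in NASH-fib (limma adjusted p = 0.00394 and 0.000697), from 5.82 to 35.1 in HSCs to 465 to 850 in NASH-fib. Synm, the intermediate filament protein synemin, was called at 1.62 and 2.5, the first at an adjusted p of 0.0471 by limma that was lost without HSC replicate 1 or 3, CCl4-fib replicate 1 or 2, or NASH-fib replicate 2 or 3, and under 5 other settings. The second (limma adjusted p = 0.0111) was lost without HSC replicate 1 or NASH-fib replicate 2. Csrp1 and Csrp2, LIM-only proteins of the actin cytoskeleton, were called in CCl4-fib at 4.25 and 5.84 (limma adjusted p = 0.0144 and 0.00451), the Csrp1 call being lost without HSC replicate 1 or CCl4-fib replicate 1. In NASH-fib their log2 fold changes were 2.06 and 1.51 with no call (limma adjusted p = 0.310 and 0.551), and NASH-fib replicate 1 was far below its group for both, at 51.7 and 12.2. Without that library both were called in NASH-fib. Pdlim7, a LIM protein of stress fibres, was called at 2.01 in CCl4-fib (limma adjusted p = 0.0144), which was lost without CCl4-fib replicate 2, and had 1.18 in NASH-fib (limma adjusted p = 0.196). In the fit corrected for GC content and length this turned round, with 0.91 and no call in CCl4-fib and a call at 1.40 in NASH-fib (limma adjusted p = 0.0169).

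Pgm5 (NM_175013, chromosome 19, 24678261 to 24861842), aciculin, a protein of adhesion plaques, was the only member called lower in CCl4-fib. Of the 40 members, 35 had a positive log2 fold change there, and those below 0 beside Pgm5, all without a call, were Rock1, Itpr1, Vcl and Ppp1r12a. It had 159, 111 and 93.3 in the HSC libraries, 23.0, 14.5 and 12.4 in CCl4-fib and, in NASH-fib, 197, 211 and 97.3. The CCl4-fib libraries were below all others, with 13 to 29 reads, and the log2 fold change against HSCs was -2.80 (SE 0.47, limma adjusted p = 0.00156). In NASH-fib it was 0.43 (limma adjusted p = 0.701). Filip1l, a filamin-interacting protein, had 395 to 852 in HSCs, 784 to 949 in CCl4-fib and, in NASH-fib, 3117, 1617 and 1346, and was called only in NASH-fib, at 1.64 (limma adjusted p = 0.0228), a call lost without HSC replicate 1 or 3.

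Actn1, Vcl, Flna and Des were not called in either comparison. Actn1, the alpha-actinin of adhesion plaques, was higher in all CCl4-fib than all HSC libraries, with a log2 fold change of 1.2 (limma adjusted p = 0.0505), and was called without HSC replicate 2, NASH-fib replicate 1 or NASH-fib replicate 3. Flna, filamin A, had 1.61 and 1.5 (limma adjusted p = 0.0995 and 0.215), and was called in both without NASH-fib replicate 1. With HSC replicate 2 also left out, Flna was called in NASH-fib at 1.525 (limma adjusted p = 0.0174) and had 0.96 without a call in CCl4-fib. Vcl, vinculin, had -0.53 and 0.20 (limma adjusted p = 0.360 and 0.880). Des, desmin, the intermediate filament of muscle and of quiescent stellate cells in rodents, had 168, 32.04 and 302 in the HSC libraries, 365, 294 and 343 in CCl4-fib and, in NASH-fib, 32.6, 1102 and 495. HSC replicate 2 and NASH-fib replicate 1 were each the lowest of their group, and with both left out Des was called in NASH-fib at 1.71 (limma adjusted p = 0.0215).

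The regulators of the myosin light chain had the smallest median log2 fold changes of the groups by role, -0.07 in CCl4-fib and 0.55 in NASH-fib. Of 4 genes, 3 were tested, and 0 were called against HSCs in the main limma fit or by edgeR. DESeq2, however, called Ppp1r12a higher in NASH-fib and Rock1 lower in CCl4-fib. At an unadjusted p under 0.05 limma had Rock1 lower in CCl4-fib and Ppp1r12a higher in NASH-fib. Mylk, the myosin light chain kinase, had 1903 to 3674 in HSCs, 2505 to 3917 in CCl4-fib and, in NASH-fib, 2570 to 5488, so the groups overlapped. Its log2 fold changes were 0.19 (SE 0.39, limma adjusted p = 0.742) and 0.55 (SE 0.39, limma adjusted p = 0.499). Ppp1r12a, the targeting subunit of myosin phosphatase, had 281 to 491 in HSCs, 305 to 385 in CCl4-fib and, in NASH-fib, 605 to 933, with log2 fold changes of -0.07 and 1.07 (limma adjusted p = 0.898 and 0.0676). In NASH-fib limma called it without HSC replicate 2, with HSC replicate 2 and NASH-fib replicate 1 both left out (1.25, limma adjusted p = 0.0243) and in the fit corrected for GC content and length (1.009, limma adjusted p = 0.0471). Rock1, a kinase that inhibits that phosphatase, had 1758, 2615 and 1107 in the HSC libraries, 724, 869 and 809 in CCl4-fib and, in NASH-fib, 4058, 2358 and 1530. CCl4-fib were below all other libraries, at -1.11 against HSCs (limma adjusted p = 0.0793).

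**Figure D3:**
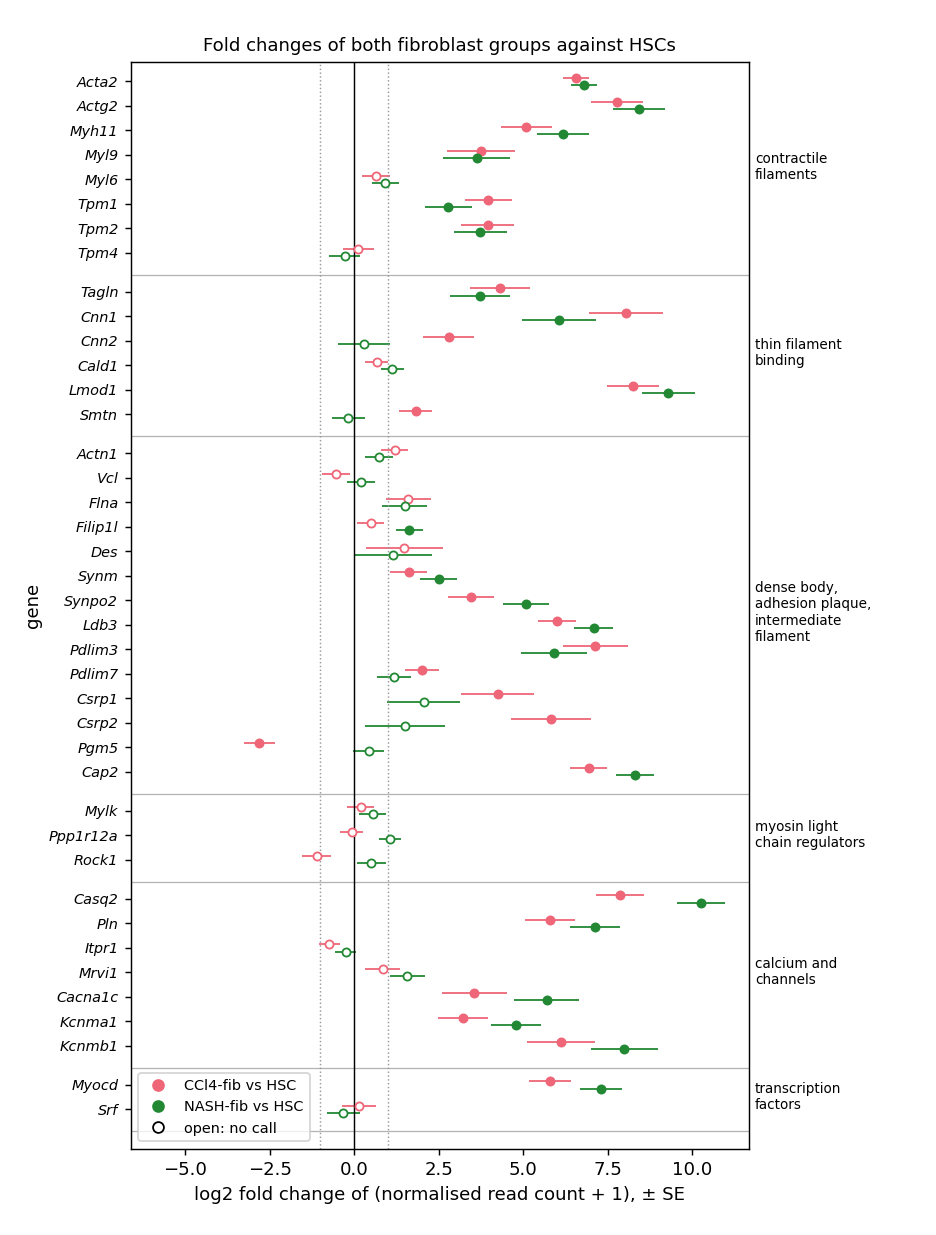
Log2 fold changes of CCl4-fib and NASH-fib against HSCs for the 40 genes tested, by role, with SE bars; filled points were called and open points were not, and dotted lines mark a log2 fold change of 1 in size. Actg2, Lmod1 and Casq2 lie beyond 7 in both groups, where Lmod1 and Casq2, at the floor in HSCs, are fitted values and no bounds, the regulators of the myosin light chain lie between -1.11 and 1.07, and Pgm5 in CCl4-fib, at -2.80, is the single filled point below 0.

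Calcium handling and ion channels made up 7 genes, of which 5 were called higher in CCl4-fib and the same 5 in NASH-fib. Casq2 (NM_009814, chromosome 3, 102086455 to 102146512), the calsequestrin that buffers calcium in the stores, had 0 reads in all HSC libraries. It had 772, 155 and 106 in CCl4-fib and, in NASH-fib, 1966, 1360 and 699, at least 90.1-fold and at least 351-fold higher than the floor. Without CCl4-fib replicate 1 the first bound was 34.1-fold. Pln, phospholamban, which restrains the calcium pump of the stores, had 1.17, 13.1 and 10.8 in the HSC libraries, 652, 245 and 382 in CCl4-fib and, in NASH-fib, 483, 1402 and 1469. It rose by 5.79 (SE 0.74, limma adjusted p = 0.000315) and 7.13 (SE 0.74, limma adjusted p = 0.000154).

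Kcnma1 and Kcnmb1 encode the pore and the smooth muscle subunit of the large-conductance potassium channel. Kcnmb1 had 11.7, 0 and 0 in the HSC libraries, 434, 95.3 and 102 in CCl4-fib and, in NASH-fib, 326, 1134 and 562, with log2 fold changes of 6.13 and 7.99 (limma adjusted p = 0.00134 and 0.000426). Kcnma1 stayed low even where it was highest, with 15.9, 21.3 and 3.82 in CCl4-fib and, in NASH-fib, 25.8, 46.3 and 35.4, and was at least 3.57-fold and at least 9.38-fold higher than the floor in HSCs. Cacna1c, the pore of the L-type calcium channel, had 25.7, 0 and 2.39 in the HSC libraries, 73.8, 34.0 and 55.3 in CCl4-fib and, in NASH-fib, 256, 276 and 178. It was called at 3.56 (limma adjusted p = 0.0205), a call lost without CCl4-fib replicate 1 or replicate 3 and with edgeR, and at 5.70 (limma adjusted p = 0.00280).

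Itpr1, the store's receptor for inositol trisphosphate, and Mrvi1, its partner under cyclic GMP, were not called. Itpr1 was the only member with its highest mean in HSCs, at 1022 ± 221 (SD, n = 3), beside 606 ± 50.5 in CCl4-fib and 854 ± 160 in NASH-fib. Mrvi1 had means of 198, 359 and 639, with log2 fold changes of 0.85 and 1.58 (limma adjusted p = 0.242 and 0.0777). It was called in NASH-fib with DESeq2, with TMM scaling, without NASH-fib replicate 1, with that library and HSC replicate 2 both left out (1.76, limma adjusted p = 0.0242) and in the fit corrected for GC content and length (1.57, limma adjusted p = 0.0245).

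Myocd (NM_145136, chromosome 11, 65176571 to 65269989), the smooth muscle partner of Srf, had 1 read in the HSC libraries together. It had 145, 48.5 and 51.5 in CCl4-fib and, in NASH-fib, 211, 297 and 137, at least 21.4-fold and at least 56.3-fold higher than the floor, the first bound being 13.1-fold without CCl4-fib replicate 1. Srf had means of 63.4 ± 35.7, 63.6 ± 4.64 and 47.5 ± 16.9 (SD, n = 3 each), and its log2 fold changes were 0.15 (SE 0.50) and -0.32 (SE 0.50), with limma adjusted p = 0.842 and 0.821. So Myocd rose, while Srf did not pass the test.

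NASH-fib and CCl4-fib were then compared directly, which is the test of whether the effects against HSCs differ. Of the 40 members, 2 were called higher in NASH-fib (5%, against 4.97% of all genes tested) and 2 lower (5%, against 5.66%), shares close to those of all genes. TMM scaling gave 4 higher and 2 lower, where 5.69% and 4.53% of all genes were called, and DESeq2 gave 7 higher and 3 lower, where 11.1% and 8.52% were. The median log2 fold change was 0.47, beside -0.11 over all genes. All libraries of NASH-fib were above all of CCl4-fib for 11 members, a pattern shown by 17.1% of all genes, and below for 4, where 22.0% of all genes showed it. Pgm5 was 3.23 higher on the log2 scale (SE 0.47, limma adjusted p = 0.00779). It was the only one of the 4 calls kept whichever library was left out. Its log2 fold change then lay between 3.03 and 3.59.

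Rock1 was called at 1.61 (SE 0.43, limma adjusted p = 0.0395), Smtn at -1.99 (SE 0.48, limma adjusted p = 0.0294) and Csrp2 at -4.33 (SE 1.18, limma adjusted p = 0.0429). Each of these 3 calls depended on single pools, and each was lost with a replicate block and with the date label as a term, that of Csrp2 also with edgeR and among genes with an average RPKM over 100. The Rock1 call was lost without any of 7 libraries, that is all but HSC replicates 2 and 3; the Smtn call without CCl4-fib replicates 1, 2 or 3 or NASH-fib replicates 1 or 3; and the Csrp2 call without HSC replicate 1, any CCl4-fib replicate, or NASH-fib replicates 1 or 3. In a fit corrected for GC content and length, Rock1 had 0.83 (limma adjusted p = 0.072) and Smtn -0.76 (limma adjusted p = 0.2095), both without a call. For Csrp2, the NASH-fib libraries had 12.2, 409 and 188 and the CCl4-fib libraries 2418, 2224 and 1543, so the groups did not overlap.

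All 7 genes of calcium handling had positive log2 fold changes in NASH-fib against CCl4-fib, from 0.48 for Itpr1 to 2.39 for Casq2, but 0 were called by limma or edgeR. At an unadjusted p under 0.05 there were 2, Casq2 and Cacna1c, and DESeq2 called the same 2. Casq2 came nearest (SE 0.70, limma adjusted p = 0.0536), and its call was gained with DESeq2, with TMM scaling, with a pseudocount of 10 and without CCl4-fib replicate 1. Cacna1c, at 2.14 (SE 0.97, limma adjusted p = 0.173), was higher in all NASH-fib libraries and was called by DESeq2, with a pseudocount of 10 and in the fit of these groups alone. Ppp1r12a, at 1.13 (limma adjusted p = 0.0557), was called with edgeR, with DESeq2, with TMM scaling, without HSC replicate 2 and with that library and NASH-fib replicate 1 both left out. On the side of CCl4-fib, Cnn2 had -2.5 (SE 0.77, limma adjusted p = 0.0625) and Tpm1 -1.19 (SE 0.69, limma adjusted p = 0.282), with all NASH-fib libraries below all CCl4-fib libraries. Cnn2 was called with DESeq2, with a pseudocount of 10, without HSC replicate 2 or NASH-fib replicate 2, and after the correction for GC content. Actg2, Lmod1, Synpo2, Ldb3, Cap2, Casq2, Pln, Cacna1c, Kcnmb1 and Myocd are on the study's own list of genes raised in NASH-fib, which was chosen on these libraries, so their direction here is not independent evidence.

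**Figure D4:**
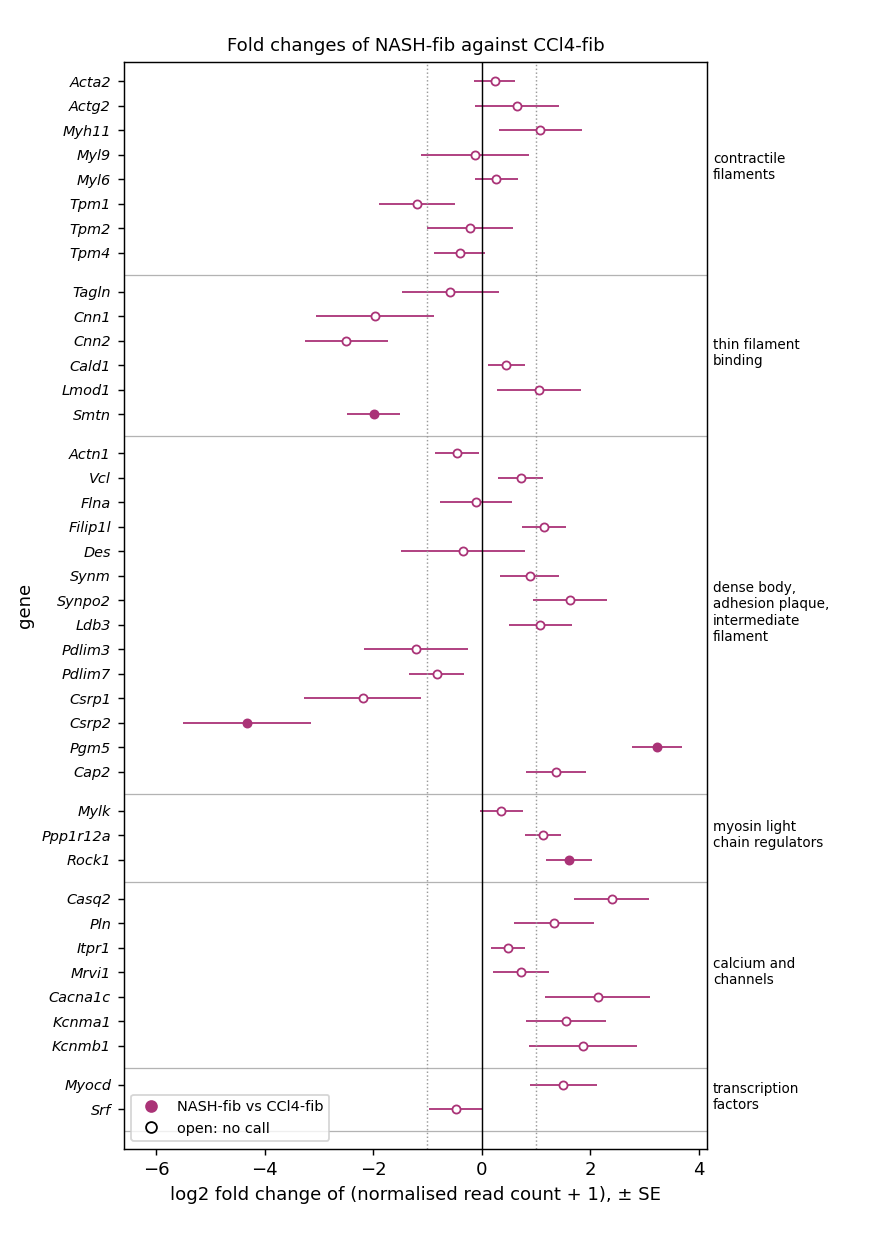
Log2 fold changes of NASH-fib against CCl4-fib for the 40 genes tested, by role, with SE bars; filled points were called, open points were not. The 7 genes of calcium handling all lie above 0 as open points, Pgm5 (3.23) and Rock1 (1.61) are filled on the right, and Csrp2 (-4.33) and Smtn (-1.99) are filled on the left.

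The pools of a group differed in how much contractile RNA they held. Summed over the 41 genes, the share of a library was 0.434%, 0.454% and 0.344% in the HSC libraries, 1.58%, 1.07% and 1.14% in CCl4-fib and, in NASH-fib, 1.03%, 2.06% and 1.45%. NASH-fib replicate 2 was the highest of its group for 31 of 40 members and the lowest for 0, and NASH-fib replicate 1 was the lowest for 24. In CCl4-fib, replicate 1 was the highest for 25. Yet NASH-fib replicate 1 was highest of its group for 8 genes, with Casq2 at 1966, Filip1l at 3117 and Rock1 at 4058. Over all genes, deviations from the group mean followed GC content in the opposite sense in NASH-fib replicate 2 (Spearman correlation 0.505) and NASH-fib replicate 1. Within the date label 11-3, which holds HSC replicate 2, CCl4-fib replicate 1 and NASH-fib replicate 1, CCl4-fib was above HSCs for 33 of 40 members (median log2 difference 4.68) and NASH-fib for 35 of 40 (1.80), and NASH-fib was above CCl4-fib for 17 of 40 (-0.37). These are single libraries, and the same counts over all genes were not taken, so the values cannot be judged against a background. HSC replicate 2 and NASH-fib replicate 1 are also the libraries that stood apart along GC content.

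Markers of other contractile cells were read in the same libraries. Of 10 markers of vascular smooth muscle and pericytes, 7 were called higher and 1 lower in CCl4-fib, beside 16.2% and 11.7% of all genes. In NASH-fib 6 were called higher (8.23% of all genes), and 2 were higher in NASH-fib than in CCl4-fib (4.97%). Olfr558, Aoc3, Olfr78 and Higd1b are on the study's own list of genes raised in NASH-fib over HSCs and CCl4-fib. That list was chosen on these libraries, so their direction, also within sums, is not independent evidence. The summed value of the 10 markers was 15493 to 29598 in HSCs, 19459, 3631 and 5059 in CCl4-fib and, in NASH-fib, 37373, 30773 and 21734. Most of it was Rgs5, with means of 20731, 6601 and 22009. Olfr78 and Aoc3 were at 0 reads in all HSC libraries, so against HSCs they could only be called higher. No marker of the list was at 0 in all libraries of a fibroblast group. Without Rgs4 and Rgs5, set aside after their values were seen, the 8 others summed to 185 to 291 in HSCs, to 4812, 1188 and 911 in CCl4-fib and, in NASH-fib, 3384, 7847 and 3818. The CCl4-fib and NASH-fib pools highest in this sum, replicate 1 and replicate 2, were also those highest in Myh11, Actg2 and Lmod1. These pools were the highest of their groups for 25 and 31 of the 40 members tested, so such a match is common. For the sum of all 10 markers the match did not hold in NASH-fib. That sum was highest in NASH-fib replicate 1 (37373), the pool lowest of its group in Myh11, Actg2 and Lmod1. Other members differed from the sum of the 8, with Acta2 highest in CCl4-fib replicate 3 (6985) and Casq2 in NASH-fib replicate 1 (1966). The part of such cells in the contractile genes was not tested.

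**Figure D5:**
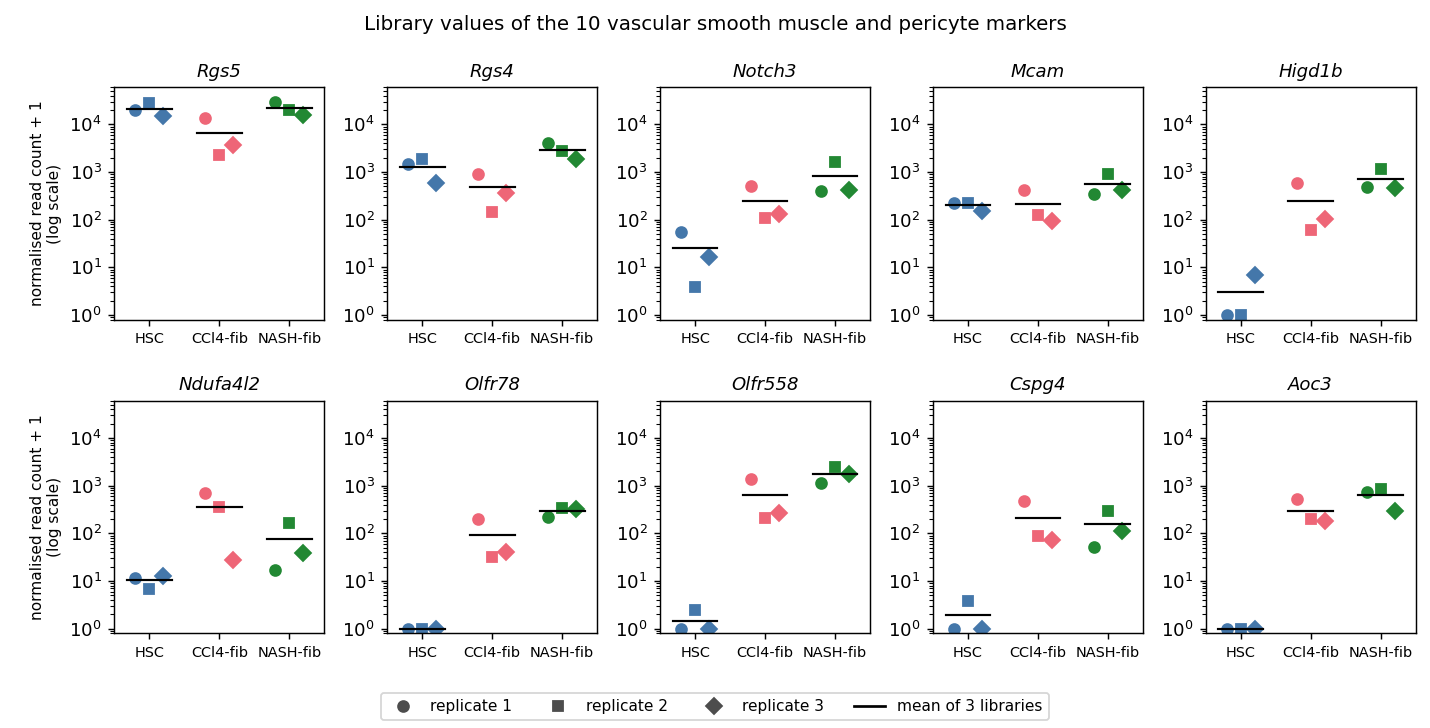
Normalised read counts plus 1 (log axis) of the 10 vascular smooth muscle and pericyte markers, each point a library, each black line the mean of 3 libraries. Rgs5 and Rgs4 are high in HSCs too, with Rgs5 at 14708 to 27511, whereas Olfr78 and Aoc3 are at 0 in HSCs and at 31.5 or more in every fibroblast library. Olfr78, Aoc3, Olfr558 and Higd1b are on the study's own list of genes raised in NASH-fib, chosen on these libraries.

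Striated muscle markers were mostly near 0, and 4 of 11 passed the filter. Ckm and Myh7 were at 0 in HSCs and Ckm also in NASH-fib. Myl7 and Tnnt2, light chain and troponin of the heart, were the called ones in this list, with log2 fold changes of 3.34 and 6.73 in CCl4-fib and, in NASH-fib, 4.54 and 6.21 (limma adjusted p = 0.0219, 0.00159, 0.00775 and 0.00410). The Myl7 call in CCl4-fib ended without CCl4-fib replicate 1 or 2, at 3.01 and 3.49. The list summed to 117 to 189 in HSCs, 716 to 1410 in CCl4-fib and, in NASH-fib, 450 to 3059. All 6 mesothelial markers and 6 of 7 portal fibroblast markers were called higher in both fibroblast groups, with Gpm6a at 386, 6797 and 15353 and Cd34 at 86.9, 2951 and 2815 on average in HSCs, CCl4-fib and NASH-fib. The quiescent stellate markers other than Des fell, 6 of 9 in CCl4-fib and 8 of 9 in NASH-fib, with Lrat at 10733, 223 and 282, so the HSC libraries carry the markers of their label. Of 8 markers of activated fibroblasts, 7 were called higher in CCl4-fib, 5 were called higher and 2, Postn (-1.71) and Col5a1 (-1.32), lower in NASH-fib, and 4 were lower in NASH-fib than in CCl4-fib. Col1a1, a collagen gene of this list, rose by 3.99 in CCl4-fib and 2.75 in NASH-fib (limma adjusted p = 4.03e-05 and 0.000481). Hepatocyte markers were called lower for 8 of 10 genes in CCl4-fib than in HSCs and higher for 6 of 10 in NASH-fib than in CCl4-fib, with Alb at 11627, 708 and 8193 on average. Sinusoidal endothelial markers were lower than in HSCs for 8 of 8 in CCl4-fib and for 5 of 8 in NASH-fib. They were higher for 8 of 8 in NASH-fib than in CCl4-fib. Their sum was 11304 to 16352 in HSCs, 220 to 362 in CCl4-fib and, in NASH-fib, 1256 to 4346. Macrophage markers, which summed to 4125 to 13636 in HSCs, were lower for 7 of 8 in CCl4-fib and 3 of 8 in NASH-fib, and higher for 4 of 8 in NASH-fib than in CCl4-fib. Of 5 cholangiocyte markers, 4 were higher in CCl4-fib and 5 in NASH-fib, and their sum was 63.1 to 226 in HSCs and 3475 or more in every fibroblast library. Krt19 is also in the mesothelial list and Spp1 in that of activated fibroblasts, so these lists are not separate evidence. Over all genes tested, 16.2% were higher and 11.7% lower in CCl4-fib than in HSCs, and 8.23% and 4.30% in NASH-fib. Against CCl4-fib, 4.97% were higher and 5.66% lower in NASH-fib. The part of these cell types in the contractile genes was not tested.

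Of 73 further genes of the same apparatus, 71 were tested, and 17 were called higher and 8 lower in CCl4-fib than in HSCs (16.2% and 11.7% over all genes). In NASH-fib 11 were higher and 3 lower (8.23% and 4.30%), and against CCl4-fib 7 higher and 4 lower (4.97% and 5.66%). The median log2 fold change of the 71 was 0.09, 0.11 and 0.08, beside 3.35, 2.28 and 0.47 for the 40 members. Several members are on the study's own list chosen on these libraries, and all lists were chosen with earlier results known. The gap between these medians is therefore not independent evidence. The 3 called with the largest change in CCl4-fib were Sgca, a sarcoglycan, Abcc9, the sulfonylurea receptor of vascular potassium channels (-5.42, limma adjusted p = 1.15e-05), and Fhl2, a LIM cofactor (5.31, limma adjusted p = 0.000124). Sgca was at 0 reads in all HSC libraries and had 117, 26.4 and 52.5 in CCl4-fib. In NASH-fib they were Trpc6, a cation channel, the homeobox gene Prrx1 (5.18, limma adjusted p = 7.51e-05) and the sarcoglycan Sgcd (5.02, limma adjusted p = 0.00033). Trpc6 was at 0 reads in all HSC libraries and had 91.1, 87.3 and 92.4 in NASH-fib. At 0 in HSCs, Sgca and Trpc6 could only be called higher than there.

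Between the fibroblast groups the largest were Pdlim1 (-2.57, limma adjusted p = 0.0295), Sgcd (2.35, limma adjusted p = 0.0338) and Abcc9 (2.13, limma adjusted p = 0.0101). The Pdlim1 call ended without any 1 of the CCl4-fib libraries or of NASH-fib replicates 1 and 3 (-2.86 to -1.93), the Sgcd call without any 1 of the NASH-fib libraries or of CCl4-fib replicates 2 and 3 (2.11 to 2.56), and the Abcc9 call without CCl4-fib replicate 2 (1.96). The Sgcd call also ended with no filter on low counts and with the date label as a term. Abcc9 had 9896 to 13106 in HSCs, 214 to 426 in CCl4-fib and, in NASH-fib, 1020 to 1424, so it fell in both and further in CCl4-fib. Of the 7 nonmuscle actin and myosin genes, 2 were called higher in CCl4-fib and 1 in NASH-fib, and Actb, the cytoskeletal actin, had means of 12349, 12362 and 12343. In the list of 12 cofactors and regulators of smooth muscle genes, 4 were higher and 1 lower in CCl4-fib, and 3 higher in NASH-fib. Over all genes, 16.2% were higher and 11.7% lower in CCl4-fib, and 8.23% were higher in NASH-fib.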

How the data were processed

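RNA was measured by sequencing in 9 mouse libraries, 3 each of HSC, CCl4-fib and NASH-fib, grouped by their labels. The deposited values are a signal: per the authors' methods and the file headers, single-end reads from SMARTer-amplified RNA were aligned to mm10 with STAR, counted over exons by HOMER without regard to strand and with a limit of 3 reads per position, and passed to the HOMER step that runs DESeq2. The values as deposited are read counts scaled by 1 factor per library, so that all libraries have the same sum. Versions of CASAVA and STAR are not given in the sources used here. Whole reads could be recovered for 100% of values (tolerance 0.02 reads), giving 3071070 to 5634273 reads per library; the floor of 3 reads used below covers counting error only.

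Since the values were normalised, limma 3.58.1 (R 4.3.3, with a mean-variance trend) was fitted to log2(value + 1) in 1 fit over the 3 groups, on the 13651 genes that filterByExpr of edgeR retained (minimum count 10). With the pseudocount of 1, fold changes of low genes are understated. Calls needed a log2 fold change of 1 or more in either direction and a Benjamini-Hochberg adjusted p under 0.05. The floor was 3 reads in each library of a group. The script was tested on simulated data. Alternatives were edgeR 4.0.16 and DESeq2 1.42.0 on recovered reads, TMM scaling, no filter, an average RPKM over 100, a pseudocount of 10, fits of 2 groups, a replicate block, the date label as a term and fits without each library. Chosen after seeing the data were leaving out HSC replicate 2 with NASH-fib replicate 1 and a correction for GC content and length (99.4% of genes had a value). Promoters are RefSeq, GRCm38.p6. All 41 members were eligible to be named, and of each other list those with the largest called changes and the defining markers. The members and lists were chosen with earlier results of these data known.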

Additional observations from a re-analysis of the deposited data

Results flagged for a closer look

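For 4 of the contractile genes the change against HSCs differed between the fibroblast groups, by the direct limma test of NASH-fib against CCl4-fib with Benjamini-Hochberg adjustment. Of the 40 tested, 2 were higher and 2 lower (5% each), close to the 4.97% and 5.66% of all genes. The difference of the log2 fold changes was 3.23 for Pgm5 and 1.61 for Rock1, and it was -1.99 for Smtn and -4.33 for Csrp2. Only Pgm5 kept its call under every alternative in which it was tested; those of Rock1, Smtn and Csrp2 were lost without single libraries, with a replicate block and with the date label as a term. All 3 NASH-fib libraries lay on the same side of all 3 CCl4-fib libraries for each of these genes. Among the further genes of the apparatus, the same test gave -2.57 for Pdlim1, 2.35 for Sgcd and 2.13 for Abcc9. The Pdlim1 call was lost without any 1 of 5 libraries, as was that of Sgcd, which was also lost with no filter, with the date label and with HSC replicate 2 and NASH-fib replicate 1 left out, and the Abcc9 call was lost without CCl4-fib replicate 2. With groups of 3 libraries, single libraries were not tested as outliers.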

How the results depend on the processing

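No called member changed sign under any alternative, while 5 of 14, 5 of 19 and 9 of 36 uncalled members did in CCl4-fib against HSC, NASH-fib against HSC and NASH-fib against CCl4-fib. In the same order, 19 of 26, 16 of 21 and 1 of 4 calls (Pgm5) were kept whichever library was left out. Without 1 library the counts ranged from 19 to 27 higher and 1 to 2 lower in CCl4-fib than HSC, 17 to 26 higher and 0 lower in NASH-fib than HSC, and 1 to 3 higher and 0 to 3 lower in NASH-fib than CCl4-fib. Without NASH-fib replicate 1, or without HSC replicate 3, 2 members were lower in CCl4-fib, Pgm5 and Rock1.

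Keeping genes with an average RPKM over 100 left 12 members to test, of which 9 were higher and 0 lower in CCl4-fib and 7 higher in NASH-fib than HSC, and 0 were higher and 0 lower in NASH-fib than CCl4-fib. Fewer genes were tested, 1080, of which 189 were higher in CCl4-fib and 81 higher in NASH-fib than HSC. Members lower in CCl4-fib than HSC numbered 2 with DESeq2 and 2 in the fit of 2 groups, again Pgm5 and Rock1. Members higher in NASH-fib than CCl4-fib numbered 7 with DESeq2, 4 with TMM scaling, 4 with a pseudocount of 10, 4 with HSC replicate 2 and NASH-fib replicate 1 left out, 1 after correcting for GC content with length, and 1 with the date label as a term. Members lower there numbered 1 with edgeR and 0 with the date label. The cause was not tested. TMM moved the median of all genes from -0.11 to 0.07 in this comparison.

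Replicate numbers follow the date labels only in part, with CCl4-fib and NASH-fib replicates 1 on the same date label, and likewise their replicates 3. The correlations between deviations of same-numbered libraries ran from -0.473 to 0.514, and not every library correlated best with its own number. The highest over all pairs from different groups, 0.645, was between HSC replicate 2 and NASH-fib replicate 1, which share a date label and no number. With a replicate block, 25 and 19 members were higher than in HSCs, and 1 was higher and 0 lower in NASH-fib than CCl4-fib. Depth limits Kcnma1, Ppp1r14a and the genes at the floor in HSCs, whose true fold is unknown.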
